A study of Mus musculus with 2 samples.

Results

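The genes described here were 19 genes of DNA replication (S phase genes) and 20 genes of mitosis, together 39 of the 34285 genes in the count tables. They were chosen by name from textbook lists, with earlier results of these data known. Each of the 39 symbols matched 1 row. Their transcripts were counted in single cells of mandibular first molars and the tissue around them, taken from C57BL/6J mice at PN15.5. In the Lipo-Clo library the mice had been injected intraperitoneally with clodronate liposomes, an agent that kills phagocytic cells, at 40 µg per g, first on PN3.5 and then at 3-day steps up to PN12.5. In the Lipo-PBS library vehicle liposomes had been given on the same schedule. The question of the design was what changes in the developing root when macrophages are depleted. Both libraries carried the same batch label. Each condition had 1 library and the number of mice behind it was not given in the sources used here, so no difference between conditions could be tested against animals. Intervals in brackets are 95% intervals of the counts (exact Poisson for levels, exact Clopper-Pearson for shares, exact conditional for ratios) and cover counting error only.

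A dividing cell copies its DNA in S phase and separates the copies in mitosis. The MCM helicase (Mcm2 to Mcm7) is loaded on origins by Cdc6 and Cdt1 and works with the GINS complex (Gins2), Pcna is the sliding clamp of the polymerases, Fen1 and Lig1 finish the lagging strand, and Tyms, Rrm1 and Rrm2 supply deoxynucleotides. Later in the cycle cyclins A and B with Cdk1 drive entry into mitosis, the Aurora kinases with Birc5 act at spindle and centromere, kinesins such as Kif11 move the spindle, and Cdc20 and Ube2c act with the ubiquitin ligase that ends mitosis. Genes of the first group are known targets of E2F factors, which RB proteins hold in check, and genes of the second group are known targets of the MuvB complex with B-Myb and Foxm1 through CHR elements and CCAAT boxes. In a growing molar, dividing mesenchyme lies in the apical papilla and the follicle, while odontoblasts and ameloblasts that make matrix have left the cycle.

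These motifs were looked for in the promoters. RefSeq promoter windows of assembly GRCm38.p6 were found for 34 of the 39 genes, 17 of each group, and the 250 bases before the start were searched on both strands. An E2F-type match (the letters TTCCCGC, the variant TTCGCGC, the variant TTGCCGC, or the variant TTGGCGC, which may overlap each other) was present in 9 of 17 S phase promoters (52.9%) and 4 of 17 mitotic promoters (23.5%), beside 9.01% of the promoters of 27025 genes. A CHR match (TTTGAA or TTCGAA) was present in 3 of 17 S phase promoters (17.6%) and 7 of 17 mitotic promoters (41.2%), beside 19.6% of all. CCAAT was found in 10 of 17 (58.8%) and 15 of 17 (88.2%), beside 37.5% of all, and 2 or more copies were present in 70.6% of the mitotic promoters beside 11.5% of all. For each motif the intervals of both groups overlapped: 27.8% to 77.0% and 6.81% to 49.9% for E2F, 3.8% to 43.4% and 18.4% to 67.1% for CHR, and 32.9% to 81.6% and 63.6% to 98.5% for CCAAT. The 120 bases before the start are printed for 5 genes: Mcm6 for its repeated E2F-type matches, Pcna for a replication gene without one, and Ube2c, Top2a and Cdk1 for mitotic genes with a CHR match. Capitals mark matches on either strand (ATTGG is CCAAT read on the other strand, TTCAAA is TTTGAA), and each stretch is written 5′ to 3′ on the gene's strand.
Mcm6: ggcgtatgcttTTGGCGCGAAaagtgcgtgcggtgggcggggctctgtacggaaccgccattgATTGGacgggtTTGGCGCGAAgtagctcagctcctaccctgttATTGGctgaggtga
Pcna: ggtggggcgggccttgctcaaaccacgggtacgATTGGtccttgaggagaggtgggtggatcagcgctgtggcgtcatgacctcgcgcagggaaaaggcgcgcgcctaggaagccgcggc
Ube2c: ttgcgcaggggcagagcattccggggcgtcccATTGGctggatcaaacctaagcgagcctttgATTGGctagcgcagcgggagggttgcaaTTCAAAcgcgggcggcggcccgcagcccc
Top2a: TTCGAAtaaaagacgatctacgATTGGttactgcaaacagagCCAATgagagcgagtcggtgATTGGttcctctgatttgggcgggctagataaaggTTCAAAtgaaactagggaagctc
Cdk1: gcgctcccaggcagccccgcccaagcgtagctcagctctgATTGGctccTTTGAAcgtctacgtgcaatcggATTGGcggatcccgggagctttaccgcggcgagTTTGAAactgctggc
These stretches lie at chr1:128359706-128359825 (minus strand, Mcm6), chr2:132253181-132253300 (minus, Pcna), chr2:164769809-164769928 (plus, Ube2c), chr11:99024190-99024309 (minus, Top2a) and chr10:69352913-69353032 (minus, Cdk1). Mcm6 held 4 overlapping E2F-type matches at 2 places and 2 CCAAT boxes, and Pcna held 1 CCAAT box only. Top2a held 2 CHR matches and 3 CCAAT boxes, Cdk1 held 2 of each, and Ube2c held 1 CHR match and 2 CCAAT boxes. A match describes the letters of a window and was not measured as a bound site.

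The libraries held 9362 Lipo-Clo and 9653 Lipo-PBS cells, of which 8254 and 8261 were kept, with 26852423 and 25831678 UMIs (counted molecules) and a median of 2567 and 2678 UMIs per cell. Mitochondrial genes took 0.370% of the UMIs in Lipo-Clo and 1.73% in Lipo-PBS. The libraries shared 30 barcodes. The cells were clustered together without the 39 genes and without other genes of the cell cycle, so that a dividing cell was placed by its lineage, and 27 clusters gave 13 named classes and 2 unnamed clusters. The macrophage class held 128 Lipo-Clo and 187 Lipo-PBS cells.

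Transcripts of both groups were highest in blood-forming cells and low in the dental mesenchyme, per UMI of the class. In CPM (UMIs of the list per 1000000 UMIs of the class), erythroid cells stood at 5003 for the mitotic genes in Lipo-Clo and 3169 in Lipo-PBS. B cell precursors followed with 3723 and 3157 CPM. B cells had 2782 and 2369 CPM, and granulocyte-monocyte progenitors 2039 and 1320 CPM in 58 and 15 cells. In Lipo-Clo the intervals of erythroid cells, B cell precursors and B cells did not touch, whereas in Lipo-PBS those of erythroid cells and B cell precursors overlapped. The dental mesenchyme, the class of pulp, follicle, ligament and bone-forming cells, had 660 and 431 CPM, and the epithelium 461 and 590 CPM. It was near the bottom of the order in both libraries: rank 13 of 15 in Lipo-Clo, with an interval that overlapped that of macrophages (637 CPM), and rank 15 of 15 in Lipo-PBS. For the S phase genes B cell precursors led with 2103 CPM over both libraries, before granulocyte-monocyte progenitors (1460 CPM), erythroid cells (1361 CPM) and B cells (1289 CPM).

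**Figure D1:**
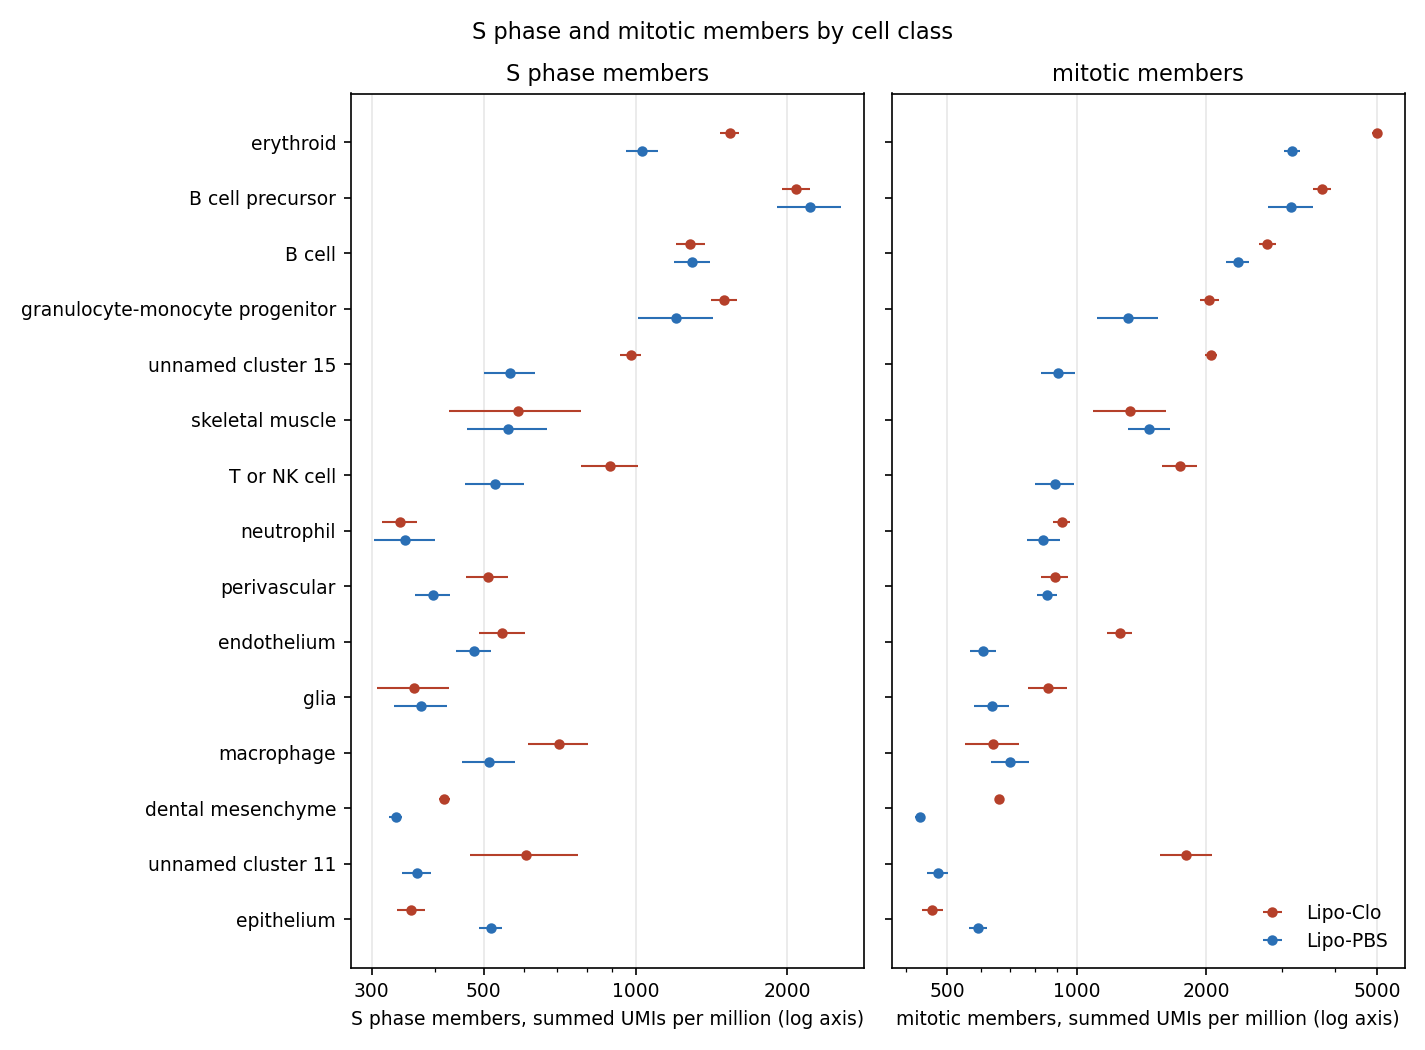
Level of the S phase genes and of the mitotic genes in each cell class (CPM, log axis), with 1 point per library and bars for 95% Poisson intervals. Erythroid cells and B cell precursors sit at the right end, with 5003 and 3723 CPM of mitotic genes in Lipo-Clo, and the dental mesenchyme sits near the left end with 660 and 431 CPM.

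By number, however, the mesenchyme held most of the transcripts of any class, since it made up 50.7% of the kept cells. It held 39.6% of the S phase UMIs and 32.6% of the mitotic UMIs. Taking each gene on its own, the class with the highest CPM among the 13 named classes was the B cell precursor for 11 of 19 S phase genes in Lipo-Clo and 14 of 19 in Lipo-PBS. For the mitotic genes it was the erythroid class for 13 of 20 in Lipo-Clo and for 6 of 20 in Lipo-PBS, where B cell precursors led for 10 of 20. No gene of the 39 was highest in the mesenchyme in either library. Pcna reached 394 CPM in the B cell precursors of Lipo-Clo and 384 CPM in those of Lipo-PBS, against 80.3 and 63.4 CPM in the mesenchyme. Mki67, which encodes the proliferation antigen Ki67, reached 317 CPM in the erythroid cells of Lipo-Clo and 199 CPM in those of Lipo-PBS, against 24.5 and 23.9 CPM in the mesenchyme. Ube2c had its highest value in erythroid cells too, at 1544 and 962 CPM against 123 and 64.6 CPM.

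The share of cells with transcripts was compared at equal depth, with every cell thinned to 1000 UMIs, shallower cells left out, and a cell counted when 3 or more UMIs of a list remained. The erythroid cells counted for the mitotic genes were 47.5% of those with clodronate and 31.8% of those with vehicle. Of mesenchymal cells, 195 of 3930 (4.96%) and 137 of 3786 (3.62%) were counted. Clusters led by genes of cells known to leave the cycle served as the background: 5 of 495 ameloblast-like cells in Lipo-Clo (1.01%; median depth 2362 UMIs) and 4 of 266 in Lipo-PBS. That cluster was not free of dividing cells, since 7 and 4 of its cells held 10 or more mitotic UMIs before thinning. Myelinating glia gave 0 of 34, which allows a share of up to 10.3% by its interval, and 1 of 79 (1.27%). In Lipo-Clo the interval of the mesenchyme (4.30% to 5.69%; median depth 2858 UMIs) lay above that of the ameloblast-like cells (0.33% to 2.34%), whereas in Lipo-PBS the mesenchymal interval (3.05% to 4.26%; median depth 2972 UMIs) overlapped theirs (0.41% to 3.81%). The Dspp-led odontoblast-like cells gave 3 of 110 (2.73%, 0.57% to 7.76%) and 1 of 89 (1.12%, 0.03% to 6.10%), and like the glia had intervals that overlapped those of the mesenchyme. Without thinning, 376 of 4311 mesenchymal cells (8.72%) and 270 of 4059 (6.65%) held 3 or more mitotic UMIs.

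Within the mesenchyme most UMIs of each mitotic gene lay in mitotic-rich cells. Each gene was scored against cells chosen without it, those with 3 or more UMIs of the other mitotic genes. Over both libraries the share of a mitotic gene's UMIs that lay in those cells had a median of 86.3% and ran from 76.9% for Tpx2, a spindle assembly factor, to 94.1% for Bub1, a checkpoint kinase. For the S phase genes the median was 44.5%, from 25.3% for Slbp, the histone mRNA binding protein, to 72.6% for Rrm2. All 20 mitotic genes and 5 of 19 S phase genes had more than 50% of their UMIs there. For the S phase genes those cells were 646 of 8370 mesenchymal cells, and they were deeper than the rest. Their share of all mesenchymal UMIs was not computed, so these percentages stand without that background. Even Slbp, the lowest, had 91.5 CPM there, against 37.7 CPM in cells with fewer than 3 mitotic and fewer than 3 other S phase UMIs. The cells were chosen by mitotic UMIs for both lists, so the medians do not say which list was spread over more cells.

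**Figure D2:**
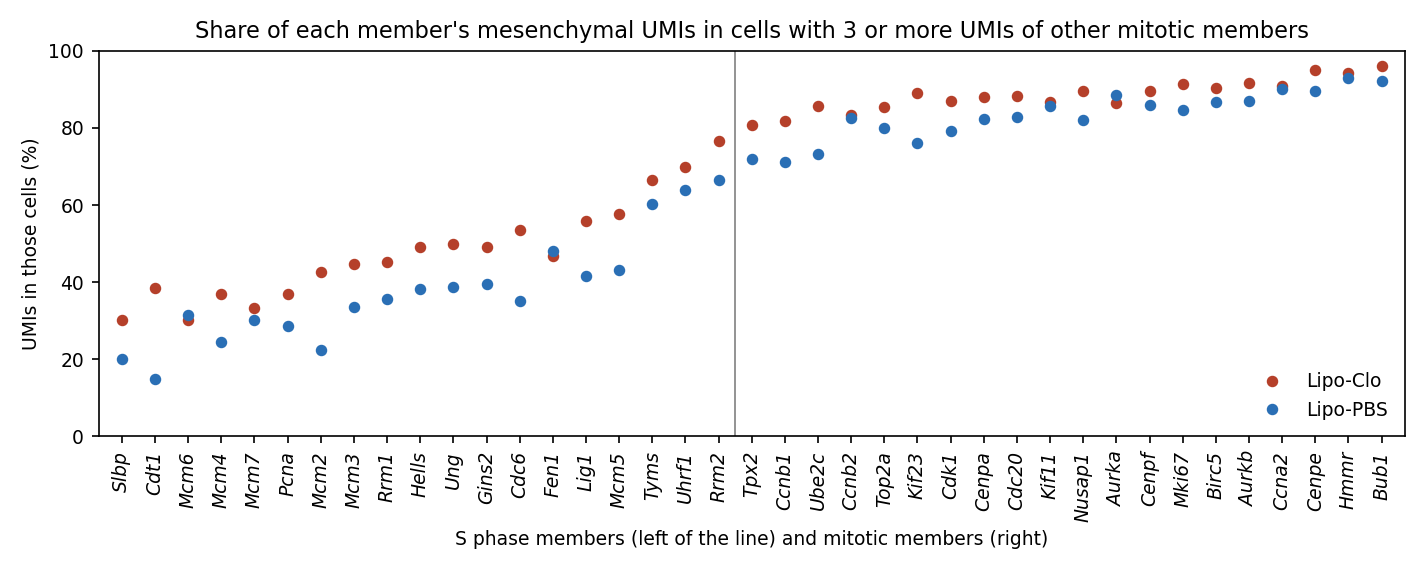
Share of each gene's mesenchymal UMIs (%) that lay in cells with 3 or more UMIs of the other mitotic genes, with 1 point per library and S phase genes left of the line. Over both libraries' points the 20 mitotic genes lie between 71.2% and 96.1% and the 19 S phase genes between 14.9% and 76.6%.

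The S phase genes were also read in cells rich in S phase transcripts alone. Cells with 3 or more UMIs of the other S phase genes but fewer than 3 mitotic UMIs were set against the mitotic-rich cells. With the libraries pooled, 11 of 19 S phase genes were higher in the mitotic-rich cells by an interval that left out 0. In the S-only cells 0 were higher. The mitotic-rich cells had no limit on S phase UMIs, so cells rich in both lists counted there, and neither cut was at equal depth. The counts therefore cannot say in which phase a gene was highest. The share of all genes with such intervals was not counted. In Lipo-Clo alone Mcm6 was higher in the S-only cells, at 55.1 against 40.0 CPM (0.46, 0.01 to 0.92), while in Lipo-PBS its ratio was -0.44 with an interval that included 0. Tyms had 142 CPM in mitotic-rich cells, 33.1 CPM in S-only cells and 9.32 CPM in cells of neither kind. Pcna had 186, 137 and 48.1 CPM in the same order, and Rrm2 had 81.9 CPM in the first and 3.61 CPM in the last. Mcm2, a helicase subunit, was at 28.4 CPM and 28.9 CPM in the first and second kind and at 5.82 CPM in neither. At these cuts, with the libraries pooled, Tyms and Rrm2 followed the mitotic genes, whereas Mcm2 was as high where mitotic transcripts were few. By library Mcm2 went both ways, with intervals that included 0. Mitotic-rich and S-only cells had 33.6 and 27.0 CPM of it in Lipo-Clo, and 20.5 and 31.4 CPM in Lipo-PBS. Mki67 had 168, 9.66 and 2.47 CPM in the same order, and Ube2c 658, 13.9 and 20.6 CPM. Mitotic-rich cells were deeper, with a median of 5430 UMIs in Lipo-Clo and 4866 in Lipo-PBS against 2727 and 2905 in the other mesenchymal cells. Thinned to 1000 UMIs, 68 Lipo-Clo cells passed for the S phase genes only, 38 for both lists and 157 for the mitotic genes only, and the Lipo-PBS counts were 50, 26 and 111.

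In the dental mesenchyme both groups of transcripts were higher in Lipo-Clo. The mitotic genes stood at 660 CPM (647 to 673) with clodronate and 431 CPM (420 to 442) with vehicle, which made the log2 ratio 0.61 (0.57 to 0.66). The S phase genes stood at 417 and 335 CPM, a log2 ratio of 0.32 (0.26 to 0.37). These intervals are narrow because they count molecules, many of which came from the same few cells, and a count of cells is the more cautious measure. At equal depth the mitotic share of 4.96% against 3.62% was a log2 ratio of 0.46 (0.13 to 0.78). The S phase share was 2.70% (106 cells) against 2.01% (76 cells), a log2 ratio of 0.43 (-0.01 to 0.87), whose interval reached 0. Cells with 10 or more mitotic UMIs numbered 215 of 4311 (4.99%) and 153 of 4059 (3.77%), a log2 ratio of 0.40 (0.10 to 0.71), and those with 50 or more numbered 53 and 24. The richest cell held 130 mitotic UMIs in Lipo-Clo and 131 in Lipo-PBS. Cells with 3 or more mitotic UMIs also held more of them in Lipo-Clo, 3982 against 3444 CPM, and the rest of the mesenchyme held 74.1 against 67.9 CPM. With both libraries set to the same mixture of mesenchymal states, the log2 ratio by UMIs was 0.47 for the mitotic genes and 0.26 for the S phase genes, and that of the mitotic share was 0.25. The number of cells near the 3-UMI limit, with 2 to 4 mitotic UMIs, was 206 and 188.

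Gene by gene, 36 of the 39 were above 0 in log2 ratio and 26 had an interval above 0, while 0 had an interval below it. The share of all mesenchymal genes with such intervals was not counted, so the 26 stand without a background. Past a 1.5-fold difference, 4 of 19 S phase genes and 8 of 20 mitotic genes were higher in Lipo-Clo and 0 of either were lower. Among the 15292 genes with 20 or more UMIs in the mesenchyme 5.65% were that much higher and 9.62% that much lower. The median log2 ratio was 0.34 for the S phase genes and 0.46 for the mitotic genes, beside -0.03 over all genes.

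Among the replication genes the origin and licensing factors showed both ends of the range. Gins2 (ENSMUSG00000031821) was at 16.5 and 8.54 CPM in the Lipo-Clo and Lipo-PBS mesenchyme, for a log2 ratio of 0.95 (0.63 to 1.28). Cdc6 had a ratio of 0.79 (0.19 to 1.41), on 69 and 37 UMIs. Its partner in helicase loading, Cdt1 (ENSMUSG00000006585), was at 6.54 and 6.92 CPM, a ratio of -0.08 (-0.51 to 0.35). The helicase subunits were mixed as well: Mcm2 (ENSMUSG00000002870) was at 11.9 and 9.86 CPM, a ratio of 0.27 whose interval (-0.07 to 0.60) included 0. Mcm7 (ENSMUSG00000029730) was at 32.5 and 25.6 CPM (0.34, 0.14 to 0.55). Mcm4 (ENSMUSG00000022673) was at 23.2 and 24.0 CPM (-0.05, -0.27 to 0.17). The clamp Pcna (ENSMUSG00000027342), the replication gene with the most UMIs, was at 80.3 and 63.4 CPM, a ratio of 0.34 (0.21 to 0.47).

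Among the genes of nucleotide supply and chromatin, Tyms (ENSMUSG00000025747), thymidylate synthase, was at 34.7 and 22.2 CPM, a log2 ratio of 0.64 (0.43 to 0.85). Rrm1 (ENSMUSG00000030978), the large ribonucleotide reductase subunit, was at 33.7 and 32.8 CPM, a ratio of 0.04 (-0.15 to 0.22). Its small partner Rrm2 had a ratio of 0.54 (0.24 to 0.83). With the median of all genes of like length taken off, as described below, Rrm1 was at 0.06 (-0.12 to 0.25). Rrm2 was then at 0.36 (0.07 to 0.66), and the intervals of both subunits overlapped. Uhrf1, which recruits the maintenance DNA methyltransferase, had a ratio of 0.74 (0.36 to 1.12). Slbp (ENSMUSG00000004642) was at 47.2 and 46.4 CPM, with a ratio of 0.02 (-0.13 to 0.18). The remaining S phase genes, Mcm3, Mcm5, Mcm6, Fen1, Hells, Ung and Lig1, lay between 0.23 and 0.54.

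Of the mitotic genes, the spindle kinase Aurka (ENSMUSG00000027496) had the largest ratio. Its levels were 8.59 and 3.83 CPM, for a log2 ratio of 1.17 (0.69 to 1.66). Birc5 (ENSMUSG00000017716), the survivin subunit of the chromosomal passenger complex, was at 94.0 and 45.2 CPM (1.05, 0.92 to 1.19). Its kinase partner Aurkb had a ratio of 0.80 (0.39 to 1.22), so these 3 genes lay at the upper end. Ube2c (ENSMUSG00000001403), the ubiquitin-conjugating enzyme of mitotic exit, was at 123 and 64.6 CPM (0.93, 0.81 to 1.05). The cyclins Ccna2 and Ccnb2 and their kinase Cdk1 had ratios of 0.75, 0.73 and 0.79. Ccnb1, the other B-type cyclin, and Cdc20 had ratios of 0.47 and 0.45.

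Other mitotic genes act at centromeres and on chromosomes. Cenpa (ENSMUSG00000029177), the centromeric histone, was at 74.3 and 46.3 CPM, a log2 ratio of 0.68 (0.54 to 0.83). Top2a (ENSMUSG00000020914), topoisomerase II, was at 53.0 and 37.6 CPM (0.50, 0.33 to 0.66). Cenpf (ENSMUSG00000026605), a kinetochore protein, was at 42.1 and 33.8 CPM (0.32, 0.14 to 0.50). Mki67 (ENSMUSG00000031004), a common proliferation marker, was nearly level between the libraries at 24.5 and 23.9 CPM, a ratio of 0.04 (-0.18 to 0.26). Cells with a Mki67 UMI were 4.85% and 4.19% of the mesenchyme, and those with a Birc5 UMI 8.86% and 5.74%. Bub1 (ENSMUSG00000027379) was at 5.25 and 5.59 CPM, with a ratio of -0.09 (-0.57 to 0.38), and the kinetochore motor Cenpe had 0.05. The remaining mitotic genes, Tpx2, Nusap1, Kif11, Kif23 and Hmmr, lay between 0.16 and 0.36.

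**Figure D3:**
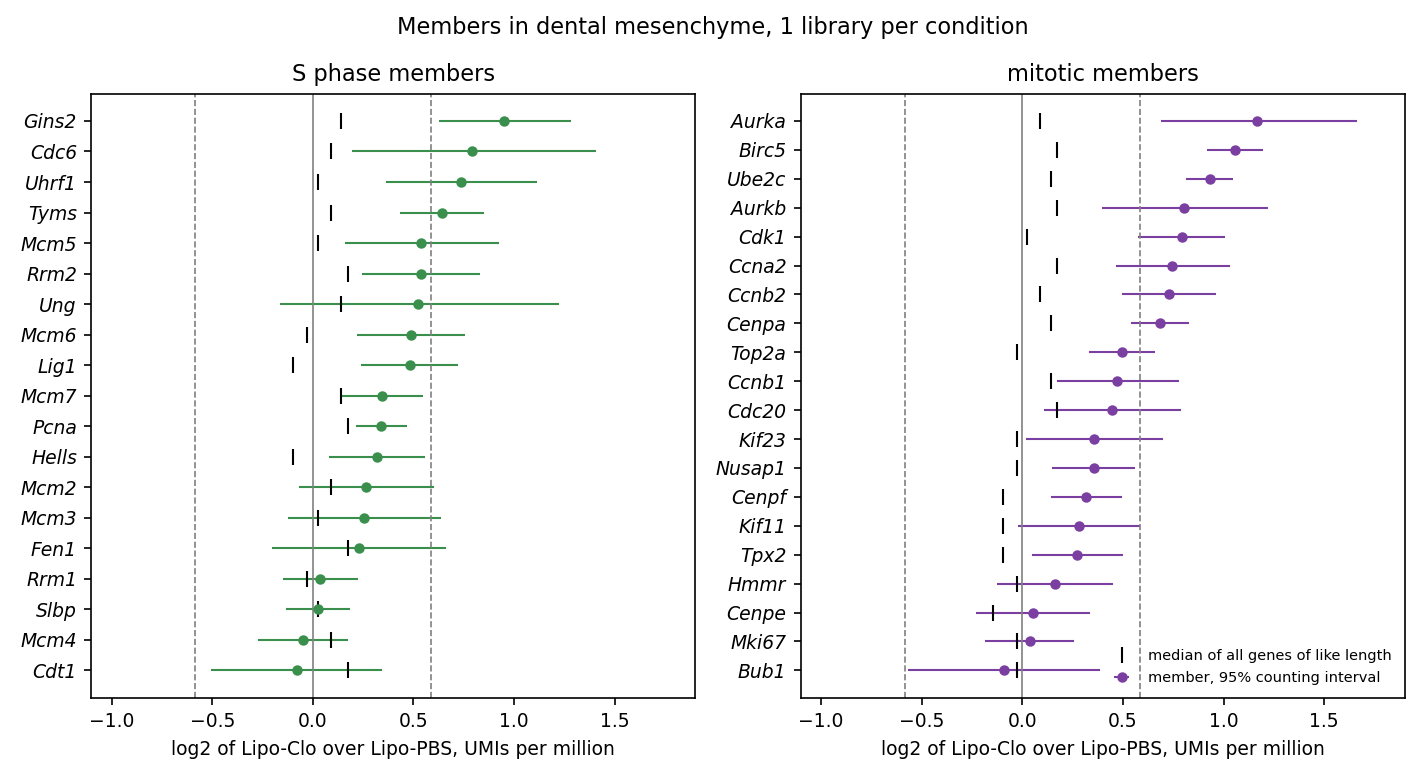
Log2 ratio of Lipo-Clo over Lipo-PBS in the dental mesenchyme for each of the 39 genes, with 95% counting intervals, dashed lines at 1.5-fold and black ticks at the median of all genes of like length. Aurka and Birc5 sit at the top with 1.17 and 1.05, Mki67 sits at 0.04, and 3 genes (Mcm4, Cdt1 and Bub1) sit below 0.

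Shorter mitotic genes had on the whole larger ratios, though not in strict order, since Cdc20, at 4.45 kb, was at 0.45 and Aurka, at 14.3 kb, at 1.17. Over all 14850 mesenchymal genes with a length in GENCODE M21, cut into 10 bins of equal size, the median log2 ratio went from 0.19 in the bin of the shortest genes to -0.29 in that of the longest. The 10 mitotic genes of up to 20 kb had a median ratio of 0.77, with the lowest at 0.45, and 8 of them were past 1.5-fold. The 10 longer ones had a median of 0.28, with the highest at 0.50, and 0 were past it. The share of all genes past 1.5-fold in each length range was not counted, so these counts stand without a background. The 20 kb limit was chosen after the values were seen. Across genes, which are not independent replicates and share both libraries, Spearman's rho of length and ratio was -0.66 over the 20 mitotic genes and 0.11 over the 19 S phase genes. Mki67 spans 26.6 kb and Birc5 6.49 kb.

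**Figure D4:**
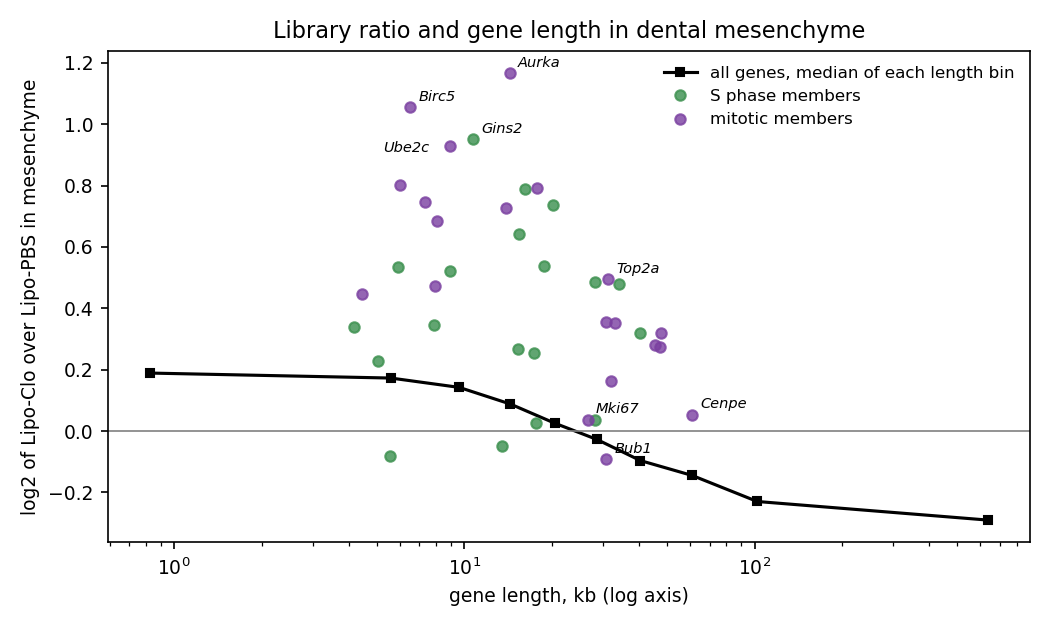
Log2 ratio of Lipo-Clo over Lipo-PBS in the dental mesenchyme against gene length (kb, log axis) for the S phase and the mitotic genes, with the median of all genes in each of 10 length bins. The line goes from 0.19 to -0.29, and the mitotic genes up to 20 kb lie at 0.45 or higher.

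With the median of each gene's own length bin taken off, the lists kept their direction. The mitotic list went from 0.61 to 0.56 (0.52 to 0.61) and the S phase list from 0.32 to 0.25 (0.19 to 0.30). Of the 39 genes, 9 were past 1.5-fold, and the share of all genes past it after the same step was not counted. Birc5 was then at 0.88 and Aurka at 1.08, while Mki67 was at 0.06. The same span between the bins of shortest and longest genes was 0.48 in the mesenchyme, 0.39 in erythroid cells, 0.19 in the epithelium and 0.15 in the endothelium, and what part it had in the ratios of the mitotic genes was not tested.

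Transcripts of erythroid cells moved with the mitotic transcripts inside the mesenchyme. Alas2, Slc4a1 and Klf1, which mark red cell precursors, summed to 79.5 CPM in mitotic-rich mesenchymal cells and 23.6 CPM in the others in Lipo-Clo, and to 134 and 52.9 CPM in Lipo-PBS. A UMI of any of them was found in 14.1% of mitotic-rich cells against 4.12% in Lipo-Clo, and in 22.2% against 8.23% in Lipo-PBS. These percentages were not taken at equal depth, and the mitotic-rich cells were deeper. Their median was 5430 against 2727 UMIs in Lipo-Clo and 4866 against 2905 in Lipo-PBS. The erythroid class had 1182 and 1160 CPM of Alas2, Slc4a1 and Klf1. The haemoglobin genes summed to 46808 against 25279 CPM in Lipo-Clo and 78616 against 51905 CPM in Lipo-PBS. With every mesenchymal cell that held a UMI of the 3 precursor genes left out, the mitotic list was at 0.63 and the S phase list at 0.32. Of the 39 genes 13 were then past 1.5-fold higher. The share of all genes past it in the cells that remained was not counted. The dental mesenchyme's own markers summed to 55318 against 72593 CPM in Lipo-Clo and 55186 against 72353 CPM in Lipo-PBS. Of the cells with 10 or more mitotic UMIs, 92 of 847 (10.9%) in Lipo-Clo and 53 of 478 (11.1%) in Lipo-PBS had been left out as likely doublets, against 7.11% and 7.12% of all cells.

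The rest of the cell cycle machinery was read from lists of further genes, with the 3 genes of most UMIs named, and each count below stands beside the same 5.65% of all mesenchymal genes higher and 9.62% lower. Of 34 other replication genes 7 were past 1.5-fold higher and 0 lower, with a median log2 ratio of 0.36. Pclaf, the Pcna-associated factor, was at 117 and 55.2 CPM (1.08), Dut, which removes dUTP, had a ratio of 0.54 and the histone chaperone Nasp 0.21. Of 62 other mitotic genes 23 were past 1.5-fold higher and 0 lower, with a median of 0.47. Here the Cdk-binding subunits Cks1b and Cks2 had ratios of 0.58 and 0.52, and the checkpoint gene Bub3 0.44. Both medians were close to those of the 39 genes.

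Further lists held genes that act upstream of S phase. Of 8 cyclins and kinases of G1, 0 were past 1.5-fold in either direction, and the median was 0.23. Cdk4 was at 241 and 169 CPM (0.51), whereas its cyclins Ccnd2, at 176 and 188 CPM (-0.10), and Ccnd3, at 86.1 and 80.3 CPM (0.10), were near level. Of 7 CDK inhibitors 3 (Cdkn2a, Cdkn2b and Cdkn2c) were past 1.5-fold higher and 0 lower, on 38 and 11, 54 and 32, and 469 and 254 UMIs, and the median was 0.39. Cdkn1c and Cdkn1a, which had the most UMIs of the inhibitors, were at 0.13 and 0.04, and Cdkn1b was at -0.41. Of 14 RB, E2F and MuvB factors 2 were past 1.5-fold higher, 0 were that much lower, and the median was 0.06. The 2 were E2f8, on 60 and 37 UMIs (0.59, -0.03 to 1.22), and the B-Myb gene Mybl2, on 56 and 31 UMIs (0.74, 0.08 to 1.42). Rb1 and Rbl2, which restrain E2F, were at -0.50 (-0.66 to -0.35) and -0.46 (-0.66 to -0.26). The MuvB subunits went both ways. Lin37 was at 0.40 (0.15 to 0.64) and Lin52 at -0.41 (-0.74 to -0.08). Lin9, at 0.14, and Lin54, at -0.12, had intervals that included 0. Names outside the most abundant 3 of a list were added after the values were seen. The ratios of all these further lists were not adjusted for gene length, and what part length had in them was not tested.

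The mesenchyme was split into 11 states, again without cell cycle genes, and the 3 picked for the highest level held 59.9% of its mitotic UMIs in 31.4% of its cells. State 6, led by Pcp4 and Lrrc4c, was pulp-or-papilla-like by its markers, as was state 7, which was not among the 3. State 6 had 988 CPM of mitotic genes with clodronate and 885 CPM with vehicle. State 5, led by Pcp4, Pdzrn4, Mmp13 and Sfrp2 and left unnamed, had 1020 and 830 CPM. State 3, led by Pappa2 and Npnt and periodontal-ligament-like, had 1007 and 451 CPM. In Lipo-Clo these 3 states were thus alike, while in Lipo-PBS state 3 was about as low as the C1qtnf3-led state 4 (437 CPM). At the low end over both libraries were the Dspp-led state 9 and the fibroblast-like state 2, led by Col14a1 and Clec3b. State 9 had 296 and 222 CPM, and state 2 had 114 and 233 CPM. In Lipo-PBS alone the osteoblast-like state 0 was the lowest, at 205 CPM. In Lipo-Clo alone states 10, 7 and 8 (139, 286 and 293 CPM) were also below state 9. For the S phase genes states 6 and 5 led as well, with 601 and 599 CPM over both libraries.

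**Figure D5:**
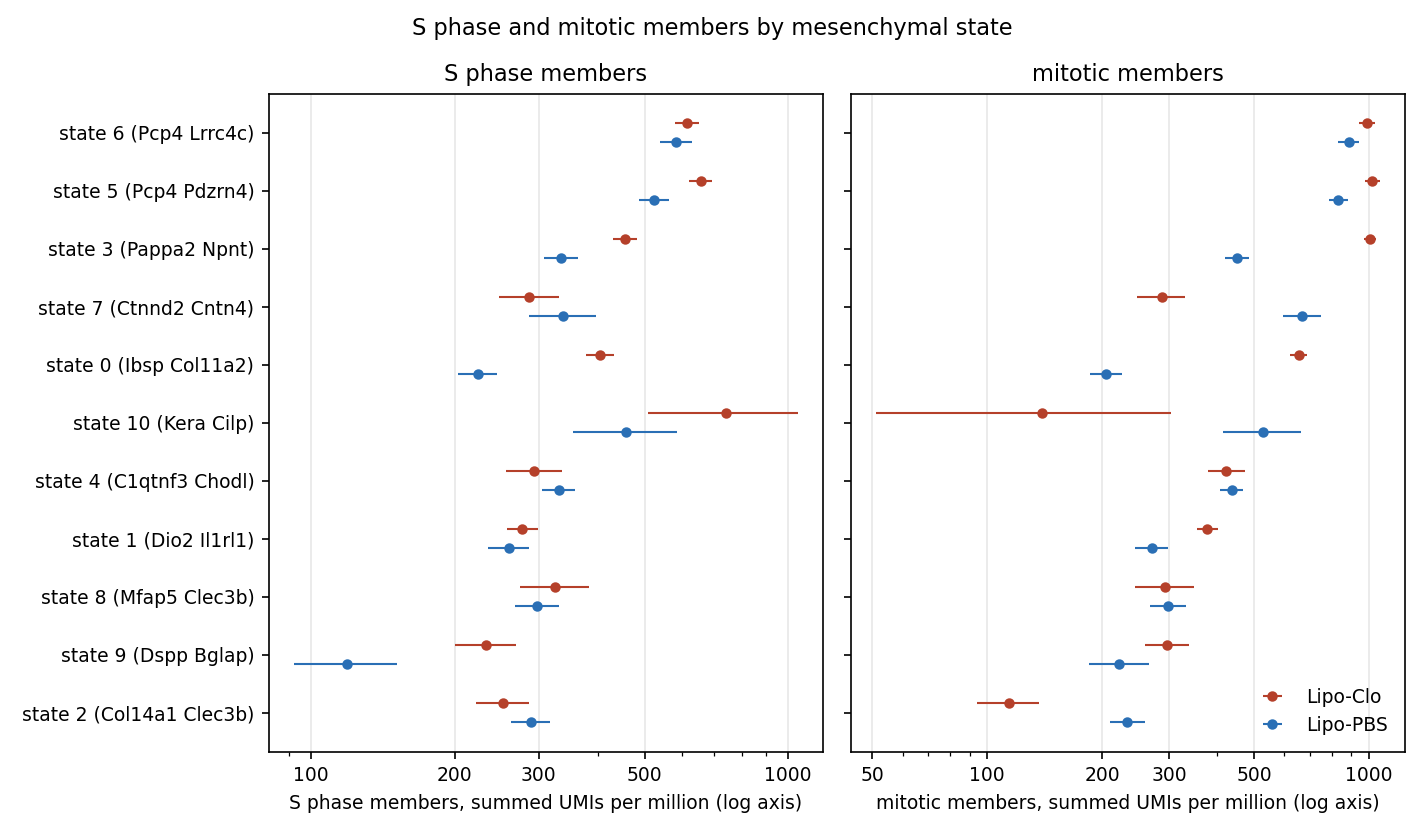
Level of the S phase and the mitotic genes in each of the 11 mesenchymal states (CPM, log axis), with 1 point per library and 95% Poisson intervals. States 6 and 5 are high in both libraries, whereas state 3 and state 0 are higher in Lipo-Clo (1007 and 654 CPM) than in Lipo-PBS (451 and 205 CPM).

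The difference between libraries was uneven among the states. By UMIs the mitotic level was higher in Lipo-Clo, with an interval above 0, in 6 of 11 states and lower, with an interval below 0, in 3. For the S phase genes the counts by UMIs were 5 and 0, and the 5 took in state 10, with 32 S phase UMIs in 20 Lipo-Clo cells. At equal depth the S phase share of cells had an interval above 0 in states 0, 1 and 3. In states 5 and 6 its log2 ratio was -0.78 and -0.75, with intervals that included 0. The osteoblast-like state 0, led by Ibsp and Bglap2, had 654 CPM with clodronate and 205 CPM with vehicle, for a log2 ratio of 1.67 (1.51 to 1.84). Its cells with 10 or more mitotic UMIs numbered 30 of 668 (4.49%) and 10 of 580 (1.72%), a ratio of 1.38 (0.31 to 2.58). State 3 had a ratio of 1.16 (1.04 to 1.28) by UMIs and, with 57 of 603 cells (9.45%) against 20 of 390 (5.13%), 0.88 (0.13 to 1.70) by cells. In the dental-follicle-like state 1 the ratio was 0.48 (0.31 to 0.65) by UMIs and 0.61 (-0.57 to 1.91) by cells. In states 5 and 6 the ratio was 0.30 (0.19 to 0.40) and 0.16 (0.05 to 0.27) by UMIs, and the count of cells gave 0.21 (-0.49 to 0.93) and -0.21 (-0.93 to 0.53). The Dspp-led state 9, the other state with an interval above 0 by UMIs (0.42, 0.10 to 0.74), rested on 5 cells with 10 or more mitotic UMIs in each library (3.82% and 5.10%, a ratio of -0.42). By that count of cells, states 0 and 3 were the ones whose interval lay above 0. The 3 states whose mitotic interval lay below 0 by UMIs were states 2, 7 and 10, and each rested on few cells. State 7, led by Ctnnd2 and Cntn4, was at 286 and 668 CPM. State 10, led by Kera and Cilp, was at 139 and 529 CPM. State 7 was pulp-or-papilla-like by its markers, as state 6 was, so by UMIs the states of that name went both ways. By cells with 10 or more mitotic UMIs the interval of each included 0. In state 7 the 5 richest cells held 81.4% of the mitotic UMIs of Lipo-PBS, and state 10 had 6 mitotic UMIs in 20 cells against 75 in 49.

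Gli1, the Hedgehog target that marks root progenitors in the mouse molar, was sparse. Its mesenchymal level was 6.61 CPM with clodronate and 5.81 CPM with vehicle, for a log2 ratio of 0.19 (-0.26 to 0.63). Over both libraries its level was highest in state 6 (18.8 CPM) and state 5 (14.5 CPM), which also had the highest pooled mitotic level. Further down, the order by Gli1 differed from the order by mitotic level. State 3, at 787 CPM of mitotic genes, had 2.55 CPM of Gli1. The fibroblast-like state 8, at 297 CPM of mitotic genes, had 8.05 CPM of it. With the mitotic genes thinned to equal depth, 14 of 163 cells with a Gli1 UMI (8.59%) were counted, against 4.21% of 7553 cells without one. The log2 ratio was 1.03 (0.14 to 1.80). Gli1 itself was read before thinning, so a deeper cell had more chance to show a Gli1 UMI. Cells with one had a median depth of 3286 UMIs and the others 3081, and the part of depth in the ratio was not tested. By library the ratios were 0.87 (-0.36 to 1.88) in Lipo-Clo, on 8 of 90 cells, and 1.22 (-0.25 to 2.38) in Lipo-PBS, on 6 of 73 cells, so each interval included 0. The Hedgehog receptor gene Ptch1 was at 43.3 and 42.3 CPM (0.03), and Hhip, which binds the ligand, was at 6.34 and 12.8 CPM (-1.01, -1.39 to -0.64). The ratios of Gli1, Ptch1 and Hhip between libraries were not set to the same mixture of mesenchymal states.

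Over the 13 named classes, the mesenchyme among them, the mitotic level by UMIs was higher in Lipo-Clo in 10, with an interval above 0 in 8 and below 0 in 1, and the S phase level was higher in 8, with 6 and 1. These intervals count molecules, many from the same few cells. By cells with 10 or more mitotic UMIs, the mesenchyme and erythroid cells alone had an interval above 0. Granulocyte-monocyte progenitors came closest (1.44, -0.02 to 3.38), glia were at -0.12 (-1.70 to 1.34), and the epithelium was at -0.50 (-1.29 to 0.27). In erythroid cells (345 and 199 cells) the mitotic list was at 5003 and 3169 CPM, a log2 ratio of 0.66, and cells with 10 or more mitotic UMIs were 42.9% and 27.6%, a ratio of 0.63 (0.18 to 1.11). There 8 of 18 S phase genes and 12 of 20 mitotic genes with 20 or more UMIs were past 1.5-fold higher and 0 lower, beside 25.7% of 4890 genes higher and 8.69% lower. Those with the largest ratios, named after their values were seen, were Aurkb at 84.3 and 21.5 CPM (1.97) and Mcm2 at 53.9 and 18.6 CPM (1.53). The median of all erythroid genes was itself 0.26, and less the medians of the length bins the mitotic list was at 0.34. Haemoglobin genes, which the class total includes, took 508107 CPM of erythroid UMIs with clodronate and 602338 CPM with vehicle. A lower haemoglobin level leaves more of the total to every other gene. What part this had in the erythroid ratios, by UMIs or by cells at equal depth, was not tested.

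In the endothelium (417 and 538 cells) the mitotic list was at 1260 and 605 CPM, a log2 ratio of 1.06. Of 18 mitotic genes 9 were past 1.5-fold higher, and of 15 S phase genes 3 were higher and 1 lower, beside 11.4% of 9312 genes higher and 13.9% lower. Birc5 was at 181 and 46.2 CPM there (1.97, 1.51 to 2.44) and Ube2c at 299 and 84.7 CPM (1.82, 1.48 to 2.17). At equal depth 28 of 250 cells (11.2%) against 21 of 386 (5.44%) were counted for the mitotic genes, a ratio of 1.04 (0.17 to 1.93). Without thinning, 23 of 417 cells (5.52%; median depth 1127 UMIs) against 22 of 538 (4.09%; 1469.5 UMIs) held 10 or more mitotic UMIs, a ratio of 0.43 with an interval from -0.48 to 1.34. The class was made of cluster 6, with 385 and 391 cells, and cluster 21, with 32 and 147 cells, whose ratios were 1.34 and 0.85. Cluster 11, led by Ctla2a, Cd74 and the endothelial gene Cdh5, was left unnamed and stood outside the class, with 29 Lipo-Clo and 627 Lipo-PBS cells at 1800 and 475 CPM of mitotic genes. The Lipo-Clo level there rested on few cells: the 5 richest held 98.0% of its mitotic UMIs and 1 held 42.1%. In Lipo-PBS the 5 richest held 13.4%. T or NK cells were at 1740 and 891 CPM (0.96), on 11 and 13 cells with 10 or more mitotic UMIs, with a ratio of 0.44 (-0.87 to 1.71). The unnamed myeloid cluster 15, led by Cd74 and H2-Eb1, was at 2053 and 905 CPM, with 86 of 326 cells (26.4%) against 16 of 164 (9.76%) at that limit, a ratio of 1.44 (0.65 to 2.30). For the mitotic genes perivascular cells were at 889 and 854 CPM (0.06, -0.07 to 0.19) and macrophages at 637 and 700 CPM (-0.14, -0.39 to 0.12), intervals that included 0. For the S phase genes they were at 509 and 396 CPM (0.36, 0.18 to 0.54) and at 704 and 512 CPM (0.46, 0.19 to 0.72).

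In the epithelium both lists were lower in Lipo-Clo, with 461 and 590 CPM of mitotic genes (-0.35) and 358 and 516 CPM of S phase genes (-0.53). Its makeup differed between the libraries. The ameloblast-like cluster, led by Amelx and Ambn, held 605 Lipo-Clo and 332 Lipo-PBS cells and was low in mitotic genes in both, at 248 and 214 CPM (0.21, -0.04 to 0.47). The keratinocyte cluster, led by Krt13 and Krt14, held 181 and 400 cells and was at 769 and 878 CPM (-0.19, -0.33 to -0.05), the only one of the 3 epithelial clusters with a mitotic ratio below 0. Cluster 22, led by Dsc3 and Cxcl14, held 60 and 74 cells at 1053 and 79.7 CPM, on 3 and 0 cells with 10 or more mitotic UMIs, and 1 Lipo-Clo cell held 44.9% of its mitotic UMIs there. Within the keratinocyte cluster 16 of 181 cells (8.84%) and 31 of 400 (7.75%) held 10 or more mitotic UMIs, a log2 ratio of 0.19 (-0.78 to 1.10).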

How the data were processed

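Deposited values were raw UMI counts per gene and cell, 1 matrix per library, made by the authors with Cell Ranger (version 8.0.0 in the file header, 3.1.0 in the submitters' processing notes, which also name Seurat 3.1.1 and GRCm39). The annotation release was not given in the sources used here. Groups were taken from the treatment labels. Barcodes needed 200 genes and no more than 20% mitochondrial UMIs. Scrublet's automatic threshold called 0 and 1 doublets, so the highest scores (0.8% per 1000 cells, 632 and 633 cells) were left out. The cells of both libraries entered 1 clustering, with no batch correction (scanpy 1.11.5, leidenalg 0.10.2, 2000 variable genes, 30 components, 20 neighbours, resolution 1), after 394 cell cycle genes had been left out, 348 by name and 46 by a correlation over 0.25 with the lists. Some of the 46, such as Slc4a1 and Klf1, mark erythroid cells. Clusters were named from marker lists, of which 1 erythroid marker is not reported here. Mesenchymal states used 20 components and resolution 0.6.

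UMIs were summed per class and library and divided by the class total. With 1 library per condition no test was made. The members and the gene lists were chosen with earlier results of these data known. Values in full were given for Mki67, Top2a, Pcna and Mcm2, for the 5 members of each list with the most mesenchymal UMIs, and for the 4 largest ratios in each direction with 50 or more UMIs (3 only were below 0). Factors of edgeR 4.0.16 (TMM) and DESeq2 1.42.0 served as alternative scalings. Ratios and intervals were run on simulated Poisson counts, the model that the intervals assume. Those counts lacked the clumping of UMIs in few cells, so the run cannot say how well the intervals cover the real counts. Gene lengths came from GENCODE M21 on GRCm38, joined by gene identifier, and 440 of 15292 genes had none. Promoter letters came from RefSeq GRCm38.p6, and no coordinates were converted between builds.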

Additional observations from a re-analysis of the deposited data

Results flagged for a closer look

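Ratios with a whole interval below 0 were found in 1 class and in the mitotic list of 3 states, while both lists were higher in Lipo-Clo in the dental mesenchyme as a whole. In the epithelium the log2 ratio of Lipo-Clo over Lipo-PBS was -0.53 for the S phase genes and -0.35 for the mitotic genes, against 0.32 and 0.61 in the dental mesenchyme. The mitotic ratio was -1.03 in the fibroblast-like state 2, -1.22 in state 7 and -1.93 in state 10. The S phase ratio of state 10 was 0.70 (0.04 to 1.33), and those of states 2 and 7 had intervals that included 0. With 1 library per condition the difference between these classes or states and the others was not tested.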

How the results depend on the processing

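Under every alternative that was run, the S phase and mitotic lists stayed higher in the Lipo-Clo mesenchyme, with log2 ratios from 0.19 to 0.35 and from 0.46 to 0.69. The mitotic ratio, 0.61 as reported, was 0.69 with likely doublets kept and 0.68 with every deposited cell kept. The mitotic and the S phase ratio were 0.54 and 0.25 with each library clustered on its own, 0.46 and 0.19 with cells thinned to 1000 UMIs, 0.47 and 0.26 with the same mixture of states, and 0.56 and 0.25 less the median of the length bin. Scaling by edgeR TMM or DESeq2 size factors added 0.03 to every ratio. Of the 39 genes, 12 were past 1.5-fold as reported, 7 after thinning and 2 past 2-fold, and 0 were lower in any of 13 alternatives. The share of all genes past these limits was not counted under the alternatives. The log2 ratio of the erythroid over the mesenchymal mitotic level, 2.99 as reported, was 2.94 with cell cycle genes kept in the clustering and 2.86 at resolution 0.5. Erythroid cells, B cell precursors and B cells led as reported. With cell cycle genes kept B cell precursors led before erythroid cells, and B cells were not among the 3 highest there, at resolution 0.5 or at resolution 2. The 3 highest states held 61.7% of the mitotic UMIs at state resolution 0.3 and 57.5% at resolution 1.0. For these changes the cause was not tested. The ratios of cell shares stayed within their counting intervals in all 14 alternatives each, from 0.12 to 0.62 for the S phase genes and 0.25 to 0.61 for the mitotic genes. Whether the interval reached 0 did change. That of the mitotic share did so with cell cycle genes kept in the clustering (0.31, -0.01 to 0.63). That of the S phase share, which reached 0 as reported, did not with doublets kept (0.55, 0.13 to 0.98), with no thinning (0.34, 0.15 to 0.53) or thinned to 2000 UMIs (0.60, 0.29 to 0.90), among others. It still reached 0 with a limit of 1 or more UMIs (0.12, -0.02 to 0.25) and of 5 or more UMIs (0.62, -0.37 to 1.66). With the same mixture of states no interval was computed for either share. With 100 bases in place of 250, 29.4% of S phase, 5.88% of mitotic and 4.37% of all promoters held an E2F-type match, 5.88%, 35.3% and 7.18% a CHR match, and 52.9%, 82.4% and 21.6% a CCAAT box. The alternatives on shared barcodes, erythroid UMIs, gene length and state resolution were chosen after seeing the data. No paired analysis was possible because there was 1 library of each treatment. Sampling of animals is covered by none of these values.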
